A study of Mus musculus with 8 samples.

Results

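Interferon-stimulated genes were followed in primary hepatocytes, the main cell type of the liver, from mice with and without Hamp, the gene of the iron hormone hepcidin. The set held 40 genes of the 16337 named genes in the expression table, and all 40 symbols sought were found. They were taken as 5 regulators of transcription, 26 antiviral genes of the kind induced by type I interferon, and 9 GTPases known as targets of interferon gamma. The choice rested on gene names and on what these genes are known for, and was made with earlier results of these data known. RNA sequencing was done on 8 libraries, 2 in each of 4 groups. The groups were wild-type C57BL/6 mice given olive oil, wild-type mice given carbon tetrachloride (CCl4), Hamp-/- mice given olive oil, and Hamp-/- mice given CCl4. CCl4 is a solvent that injures hepatocytes. All mice were males aged 4 weeks. The CCl4 dose was a 12.5% mixture in olive oil and exposure lasted 24 h in every group. The title of the study is about hepcidin, hepatocyte death and the stress kinase PERK, and interferon is not named in it. The stated design had 6 mice per group. The labels do not say whether both libraries of a group are from different animals, from pools or from 1 animal, so the spread behind each p-value may be technical. The background strain of the Hamp-/- mice is not given in the sources used here.

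Interferons are secreted proteins that warn cells of infection. Type I interferons act through a receptor whose signal brings Stat2 and Irf9 into a complex that binds the interferon-stimulated response element (ISRE) of antiviral genes. Interferon gamma, a product of T cells and natural killer cells, acts through another receptor, whose signal reaches genes with a gamma-activated site (GAS) and induces Irf1 and the immunity-related and guanylate-binding GTPases that attack vacuoles of intracellular pathogens. Hepatocytes and the resident macrophages of the liver, Kupffer cells, can respond to both.

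Values were FPKM, which divides the fragments of a gene by its length and by the mapped fragments of its library, and were tested as log2(FPKM + 1) with limma. A log2 difference on this scale understates the change of a gene of low FPKM. A gene is said to have risen or fallen where its Benjamini-Hochberg adjusted p, taken over all 10082 genes tested, was below 0.05. The deleted gene followed the labels, with Hamp at 1805 and 1826 FPKM in wild-type oil, 1273 and 1136 in wild-type CCl4, 2.72 and 0.54 in knockout oil, and 0.98 and 0.83 in knockout CCl4. The 15 hepatocyte markers made up 14.3% to 19.0% of the summed FPKM of a library, so the labelled cell type had its markers. Markers of Kupffer cells and macrophages made up 0.00751% and 0.00865% in wild-type oil, 0.0454% and 0.0485% in wild-type CCl4, 0.0722% and 0.0883% in knockout oil, and 0.118% and 0.136% in knockout CCl4. In such bulk samples, fewer cells of a type and less RNA per cell cannot be told apart. The libraries of the knockout groups stood farther apart than those of wild type, with an SD of the replicate difference in log2 values of 0.364 in oil and 0.394 after CCl4, against 0.139 in both wild-type groups.

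Promoters of the members were read from RefSeq (GRCm38.p6, from 250 bases before to 50 after each gene start) and searched on both strands for the ISRE core (GAAA, any 2 bases, then GAAA) and for the GAS (TTC, any 3 bases, then GAA). An entry was found for 30 of the 40 members, with 36 promoters in all. Oas2, Mx1, Mx2, Usp18, Parp9, Parp14, Rtp4, Zbp1, Iigp1 and Gbp6 had no entry. The 6 promoters printed here belong to genes whose levels went different ways in the 2 genotypes or that anchor a class. They are Isg15 of the antiviral class (chr4:156200769-156201068, minus strand), the GTPases Irgm1 (chr11:48871371-48871670, minus strand), Igtp (chr11:58199306-58199605, plus strand), Irgm2 (chr11:58214727-58215026, plus strand) and Tgtp1 (chr11:48992197-48992496, minus strand), and the regulator Irf1 (chr11:53769764-53770063, plus strand). Each is given from 5′ to 3′ on the strand of its gene, with matches to the ISRE core or the GAS in capitals.
Isg15: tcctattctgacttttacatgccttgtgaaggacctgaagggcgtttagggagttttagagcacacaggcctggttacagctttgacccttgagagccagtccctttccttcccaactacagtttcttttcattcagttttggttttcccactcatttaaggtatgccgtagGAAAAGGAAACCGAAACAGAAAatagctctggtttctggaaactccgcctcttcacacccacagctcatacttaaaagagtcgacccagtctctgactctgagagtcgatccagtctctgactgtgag
Irgm1: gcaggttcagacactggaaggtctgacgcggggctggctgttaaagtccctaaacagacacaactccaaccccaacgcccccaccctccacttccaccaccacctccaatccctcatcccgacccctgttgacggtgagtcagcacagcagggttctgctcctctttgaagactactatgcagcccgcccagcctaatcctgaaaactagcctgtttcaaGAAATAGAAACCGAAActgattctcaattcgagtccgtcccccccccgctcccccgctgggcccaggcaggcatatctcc
Igtp: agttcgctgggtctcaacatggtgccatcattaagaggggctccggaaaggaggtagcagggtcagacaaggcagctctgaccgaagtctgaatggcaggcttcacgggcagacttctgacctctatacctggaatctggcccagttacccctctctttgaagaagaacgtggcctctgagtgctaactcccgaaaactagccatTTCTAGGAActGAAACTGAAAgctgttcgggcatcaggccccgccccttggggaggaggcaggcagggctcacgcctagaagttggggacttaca
Irgm2: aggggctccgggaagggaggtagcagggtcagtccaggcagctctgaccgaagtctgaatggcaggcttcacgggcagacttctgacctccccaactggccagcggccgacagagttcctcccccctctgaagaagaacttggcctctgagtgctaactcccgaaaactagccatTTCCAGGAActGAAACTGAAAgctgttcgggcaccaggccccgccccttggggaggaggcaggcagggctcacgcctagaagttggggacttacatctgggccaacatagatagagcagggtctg
Tgtp1: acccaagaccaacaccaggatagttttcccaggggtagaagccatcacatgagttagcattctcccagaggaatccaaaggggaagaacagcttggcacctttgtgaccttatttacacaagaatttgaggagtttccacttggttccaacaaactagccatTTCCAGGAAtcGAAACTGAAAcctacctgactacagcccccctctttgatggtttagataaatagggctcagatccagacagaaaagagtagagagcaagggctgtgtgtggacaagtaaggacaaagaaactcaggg
Irf1: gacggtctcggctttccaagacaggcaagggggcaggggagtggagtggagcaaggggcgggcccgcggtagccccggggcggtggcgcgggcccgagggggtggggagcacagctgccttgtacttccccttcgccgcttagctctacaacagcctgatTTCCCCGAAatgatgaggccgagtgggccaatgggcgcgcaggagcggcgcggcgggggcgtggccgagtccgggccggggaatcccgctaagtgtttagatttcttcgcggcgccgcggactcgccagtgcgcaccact

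In the Isg15 promoter, 3 overlapping ISRE cores start 78, 72 and 66 bases before the gene start. Irgm1 has 2 overlapping cores, at 30 and 24 bases before the start. Igtp, Irgm2 and Tgtp1 each hold a GAS followed by an ISRE core that begins 11 bases later, and the GAS starts 45, 75 and 88 bases before the gene start in that order. That pairing was found in 5 of 32851 mouse promoters (0.0152%), the other two being those of Tgtp2 and Gm12185, which also lie on chromosome 11. These GTPases are related in sequence, so their promoters are not independent examples. The printed Irf1 promoter holds a GAS at 90 bases before its start. Another Irf1 promoter (chr11:53770223-53770522, plus strand) holds neither motif. Over the members, the ISRE core was in 19 of 36 promoters (52.8%) against 3.44% of all promoters, and the GAS in 11 of 36 (30.6%) against 8.30%. By gene, the ISRE core was in 7 of 7 GTPases, 10 of 18 antiviral genes and 1 of 5 regulators with an entry. A match describes the letters of this window and does not show that a factor binds there.

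**Figure D1:**
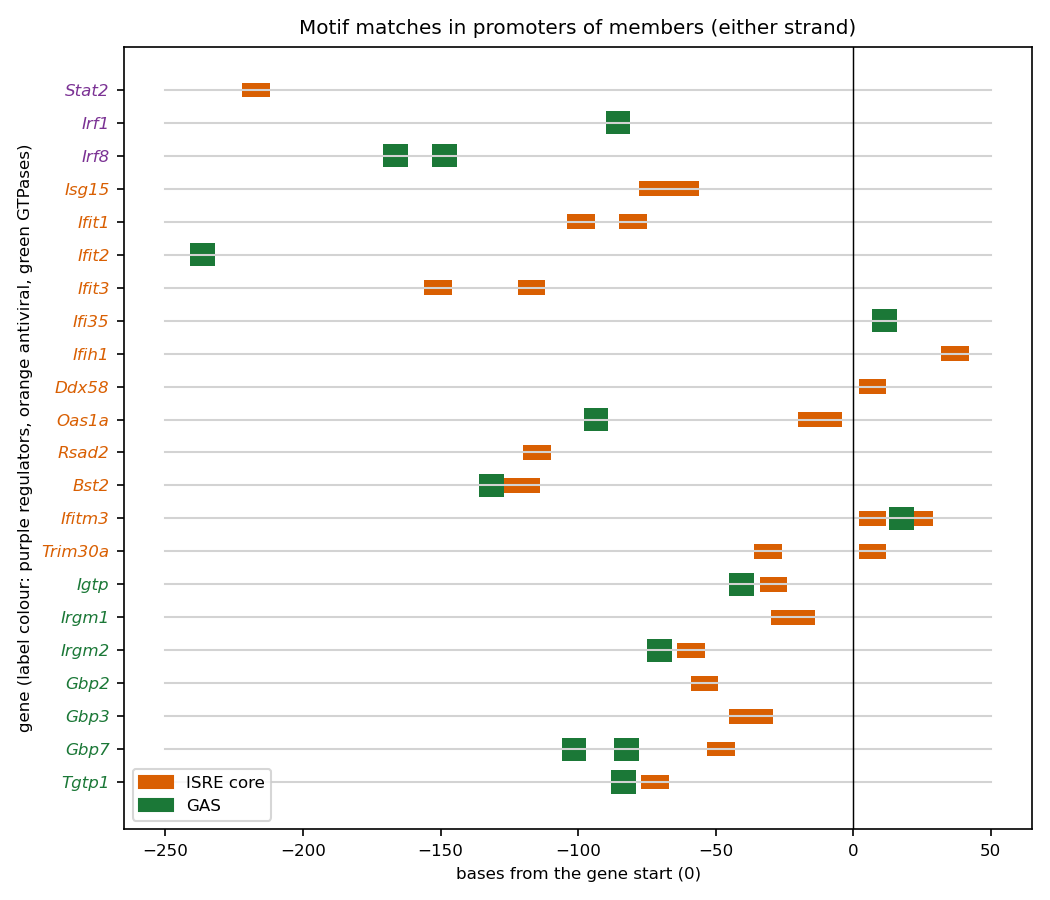
Position of ISRE core (orange) and GAS (green) matches in the promoters of members that hold any, in bases from the gene start, with the name of each gene coloured by class. Among the GTPases, Igtp, Irgm2 and Tgtp1 show the GAS directly upstream of the ISRE core.

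Levels ranged widely within the set. Ifitm3, a membrane protein that blocks the entry of viruses from endosomes, was the most abundant member, at 595 and 617 FPKM in wild-type oil, 828 and 786 in wild-type CCl4, 628 and 746 in knockout oil and 878 and 1026 in knockout CCl4. Bst2, the tether that holds budding virions on the cell surface, came next, at 99.6 and 110.2 FPKM in wild-type oil, 228 and 204 in wild-type CCl4, 161 and 208 in knockout oil and 228 and 263 in knockout CCl4. The libraries of the 2 CCl4 groups were above those of oil in the same genotype for both genes. The median of the group means over the 40 members was 3.25 FPKM in wild-type oil, 4.11 in wild-type CCl4, 3.06 in knockout oil and 5.02 in knockout CCl4. The number of members with a mean under 1 FPKM was 11, 3, 8 and 7 in the same order. Of the 40 members, 37 reached 1 FPKM in at least 2 libraries and were tested, and Ifit2, Oas2 and Mx1 did not. Ifit2, which binds viral RNA, lay between 0.10 and 1.71 FPKM, Oas2, an oligoadenylate synthetase, between 0.04 and 0.97, and Mx1, a dynamin-like GTPase, between 0.11 and 0.84.

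After CCl4, wild-type hepatocytes carried more of the set than after oil. Of the 37 members tested, 14 rose (37.8%), against 15.8% of all genes tested that changed, 10.2% higher and 5.61% lower. The 2 groups did not overlap for 34 of 37 members, against 70.8% of all genes. With limma, 0 members fell, and 0 were lower at an unadjusted p under 0.05. The median log2 difference of the members was 0.60, against 0.04 for all genes tested, and 35 of 37 differences were positive, against 5806 of 10082. By class, 3 of 5 regulators, 7 of 23 antiviral genes and 4 of 9 GTPases rose, with medians of 0.60, 0.40 and 0.68. The count of 14 depends on how the spread is estimated, and the knockout libraries vary more: with only the 4 wild-type libraries 28 members were called, and with weights for the spread in each genotype 23 were. Kupffer cell and macrophage markers rose beside these genes, in 14 of 18 markers, as did 9 of 13 neutrophil and monocyte markers tested, and their part in the result was not tested.

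In knockout hepatocytes, CCl4 went with changes in both directions. Of the 37 members, 15 rose and 7 fell (59.5% changed), close to the 55.3% of all genes that changed, with 27.9% higher and 27.4% lower. The groups did not overlap for 24 of 37, against 71% of all genes. The median log2 difference was 0.12 against -0.03 for all genes. The classes went apart: 11 of 23 antiviral genes rose and 3 fell, with a median of 0.42, whereas 1 of 9 GTPases rose and 3 fell, with a median of -0.46. Among regulators 3 rose and 1 fell. In the same contrast 11 of 13 neutrophil and monocyte markers rose and 1 fell (median 1.38), 8 of 18 Kupffer cell and macrophage markers rose and 4 fell (median 0.33), and 6 of 11 sinusoidal endothelial markers fell (median -0.56), and their part in the members' values was not tested. With only the 4 knockout libraries in the fit, 13 members were called, 9 higher and 4 lower.

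Of the 14 members that rose in wild type and the 15 that rose in knockout, 11 were shared, which is 29.7% of the members tested against 7.4% of all genes. They were Irf7, Irf8 and Irf9, the antiviral Isg15, Oas1a, Oasl2, Usp18, Bst2, Rtp4 and Zbp1, and the GTPase Gbp2. Irgm2 and Tgtp1 rose in wild type and fell in knockout, which is 5.41% of the members against 1.11% of all genes. Igtp rose in wild type and did not pass the test in knockout.

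**Figure D2:**
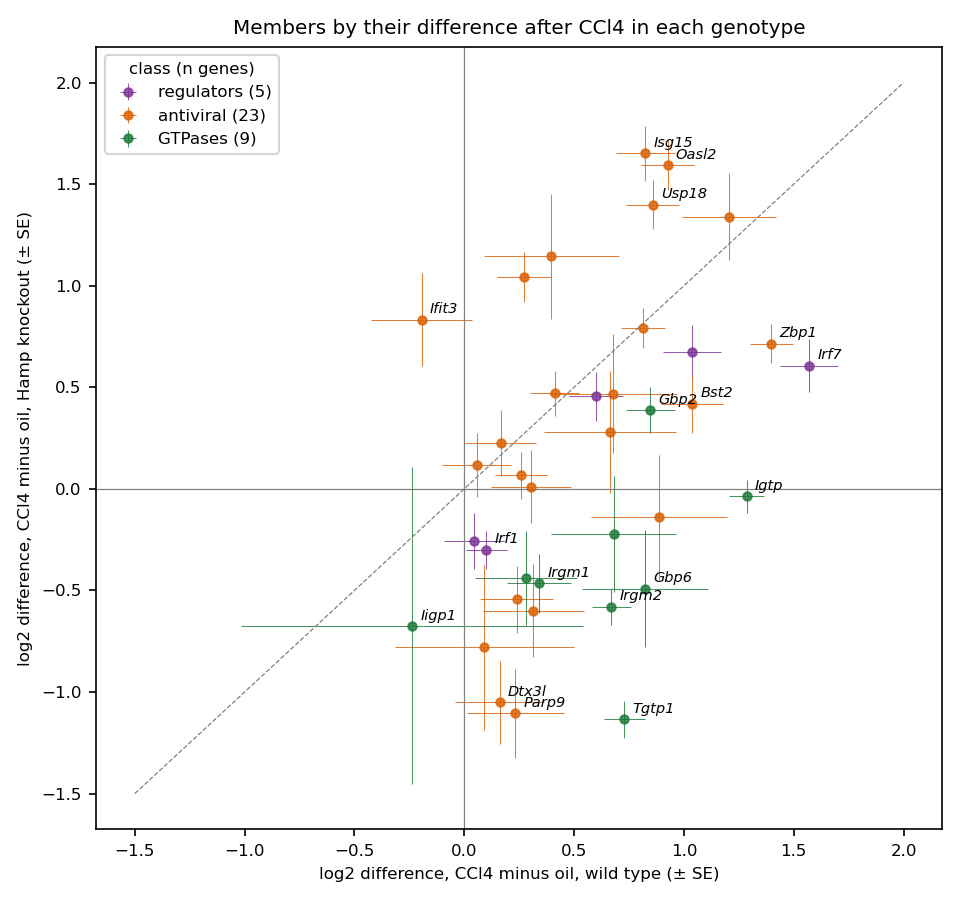
Log2 difference of each of the 37 tested members between CCl4 and oil, in wild type (x axis) and in Hamp knockout (y axis), with bars of 1 SE and colours by class. Of the 23 antiviral genes, 10 lie above the dashed line of equal difference, among them Isg15 and Oasl2, and 13 lie below it. All 9 GTPases lie below it, with Irgm2 and Tgtp1 in the lower right.

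Between genotypes under oil, members went both ways. Of the 37, 10 were higher and 6 lower in knockout (43.2%), against 33.4% of all genes, 22.4% higher and 11% lower. No overlap between genotypes was seen for 25 of 37, against 70.2% of all genes. The medians were -0.11 for regulators, 0.04 for antiviral genes and 0.44 for GTPases, against 0.05 for all genes. After CCl4 the balance tilted to lower values in knockout, with 8 members higher and 14 lower (59.5%), against 57.1% of all genes, 29.6% higher and 27.5% lower, and with no overlap for 31 of 37, against 80.5% of all genes. The class medians were then -0.25, -0.05 and -0.88, against -0.02 for all genes. All 18 Kupffer cell and macrophage markers and all 11 sinusoidal endothelial markers tested were higher in knockout oil than in wild-type oil, and 17 of 18 and 10 of 11 were after CCl4. Their part in the differences between genotypes was not tested.

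Among the regulators, Irf7 and Irf8 rose with CCl4 in both genotypes, whereas Irf1 and Stat2 were lower throughout in knockout. Irf7, the factor that amplifies type I interferon production, was at 12.7 and 11.7 FPKM in wild-type oil, 39.8 and 36.4 in wild-type CCl4, 22.4 and 26.3 in knockout oil and 33.6 and 41.9 in knockout CCl4. Both wild-type oil libraries were the lowest of the 8, and knockout oil lay between them and the CCl4 groups. The log2 difference of CCl4 from oil was 1.57 ± 0.13 in wild type (limma adjusted p = 0.000561) and 0.61 ± 0.13 in knockout (adjusted p = 0.00738). Knockout oil already exceeded wild-type oil by 0.94 ± 0.13 (adjusted p = 0.00239), whereas after CCl4 the genotypes overlapped. Irf8, a factor of myeloid and dendritic cell development, was at 0.74 and 0.92 FPKM in wild-type oil, 2.78 and 2.72 in wild-type CCl4, 2.98 and 3.59 in knockout oil and 5.19 and 6.51 in knockout CCl4. It was below 1 FPKM in wild-type oil alone and highest in both knockout CCl4 libraries, and no 2 groups overlapped. Its log2 differences were 1.04 ± 0.13 with CCl4 in wild type (adjusted p = 0.00295), 0.67 ± 0.13 in knockout (adjusted p = 0.004603), 1.23 ± 0.13 between genotypes under oil (adjusted p = 0.000837) and 0.86 ± 0.13 under CCl4 (adjusted p = 0.00168). The order of the 4 groups in Irf8 was that of the macrophage marker share, and the part of macrophage RNA in it was not tested.

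Irf9, the DNA-binding subunit that joins Stat2, was at 8.99 and 9.82 FPKM in wild-type oil, 14.98 and 14.5 in wild-type CCl4, 8.06 and 9.28 in knockout oil and 10.98 and 13.6 in knockout CCl4. It rose by 0.60 ± 0.12 in wild type (adjusted p = 0.0194) and by 0.45 ± 0.12 in knockout (adjusted p = 0.0181). The first of these calls was lost without any single one of the 4 wild-type libraries (adjusted p up to 0.146) and with equal library medians (0.0644), and the second without knockout CCl4 replicate 2 or knockout oil replicate 1 (up to 0.0886). Irf1, which interferon gamma induces and which drives many of the GTPases, was at 11.5 and 11.6 FPKM in wild-type oil, 12.8 and 12.1 in wild-type CCl4, 6.06 and 5.68 in knockout oil and 4.93 and 4.25 in knockout CCl4. Every knockout library was below every wild-type library, with a difference of -0.87 ± 0.09 under oil (adjusted p = 0.000864) and of -1.27 ± 0.09 under CCl4 (adjusted p = 7.48e-05). Irf1 fell with CCl4 in knockout by 0.30 ± 0.09 (adjusted p = 0.03196), a call lost without any one library other than knockout CCl4 replicate 1 (up to 0.135). Stat2, a subunit of the type I complex, was at 11.4 and 9.49 FPKM in wild-type oil, 11.8 and 9.78 in wild-type CCl4, 6.84 and 6.8 in knockout oil and 5.01 and 6.13 in knockout CCl4. It was lower in knockout than in wild type with no overlap under either treatment, with a log2 difference of -0.54 ± 0.14 under oil (adjusted p = 0.0243) and of -0.84 ± 0.14 under CCl4 (adjusted p = 0.00235). The oil call was lost without any one of the 4 oil libraries (up to 0.152).

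**Figure D3:**
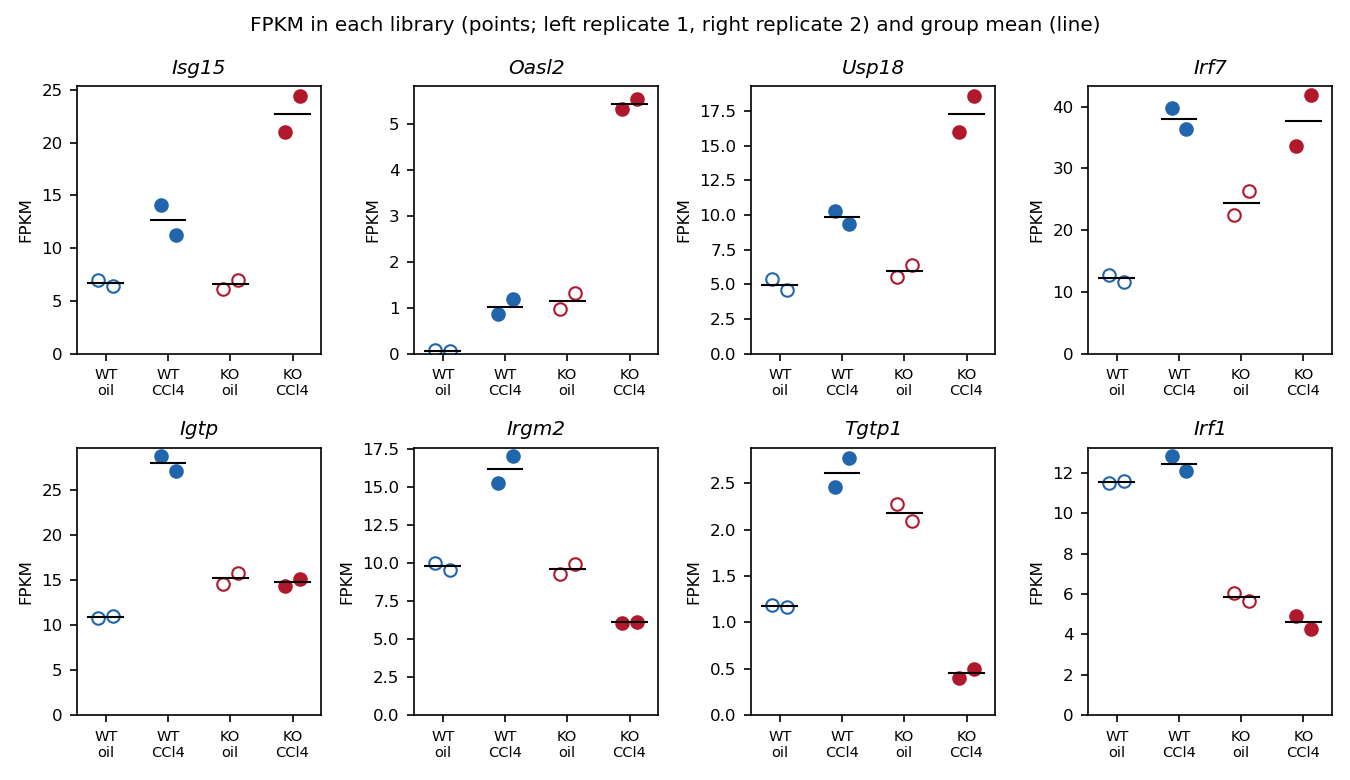
FPKM of 8 members in each of the 8 libraries (open points oil, filled points CCl4, blue wild type, red knockout), with a line at the mean of the 2 libraries of a group. Isg15, Oasl2 and Usp18 are highest in both knockout CCl4 libraries, whereas Igtp and Irgm2 are highest in both wild-type CCl4 libraries, Tgtp1 is lowest in knockout CCl4, and Irf1 is lower in all 4 knockout libraries.

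Within the antiviral class, a first group rose with CCl4 in both genotypes. Isg15, the ubiquitin-like modifier whose promoter carries 3 ISRE cores, was at 7.01 and 6.38 FPKM in wild-type oil, 14.1 and 11.3 in wild-type CCl4, 6.11 and 6.99 in knockout oil and 21.04 and 24.4 in knockout CCl4. The oil groups of both genotypes overlapped, and both CCl4 groups lay above them, with knockout CCl4 highest. The log2 difference was 0.82 ± 0.14 in wild type (adjusted p = 0.008702) and 1.65 ± 0.14 in knockout (adjusted p = 9.86e-05). The difference between those responses was 0.83 ± 0.19 (interaction, adjusted p = 0.0178). Oasl2, of the oligoadenylate synthetase family, was at 0.07 and 0.05 FPKM in wild-type oil, 0.85 and 1.19 in wild-type CCl4, 0.97 and 1.31 in knockout oil and 5.33 and 5.55 in knockout CCl4. Wild-type oil was near 0, wild-type CCl4 and knockout oil were alike, and knockout CCl4 was above every other library. It rose by 0.93 ± 0.12 in wild type (adjusted p = 0.00343) and by 1.59 ± 0.12 in knockout (adjusted p = 7.02e-05). Its interaction of 0.67 ± 0.17 (adjusted p = 0.0255) turned to -0.62 with a pseudocount of 0.1 (adjusted p = 0.190), so the direction depends on the pseudocount, with wild-type oil near 0. Usp18, which removes Isg15 from proteins and dampens the type I receptor, was at 5.35 and 4.61 FPKM in wild-type oil, 10.3 and 9.39 in wild-type CCl4, 5.5 and 6.37 in knockout oil and 15.98 and 18.6 in knockout CCl4. Knockout CCl4 again stood above all other libraries, with a rise of 1.40 ± 0.12 (adjusted p = 0.000122) against 0.86 ± 0.12 in wild type (adjusted p = 0.00457). The Usp18 interaction was 0.54 ± 0.17 (adjusted p = 0.05103), which misses the threshold. The wild-type call of Isg15 was lost without wild-type CCl4 replicate 1 or either wild-type oil library (up to 0.0783). The Isg15 interaction was lost without wild-type CCl4 replicate 2 or either wild-type oil library (up to 0.0741) and with GC and length trends removed (0.0520), and that of Oasl2 without wild-type CCl4 replicate 1, either wild-type oil library, knockout CCl4 replicate 2 or knockout oil replicate 1 (up to 0.0904).

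Oas1a, the synthetase whose product activates RNase L, was at 0.21 and 0.73 FPKM in wild-type oil, 2.14 and 2.55 in wild-type CCl4, 2.1 and 2.98 in knockout oil and 7.01 and 8.87 in knockout CCl4. It rose by 1.21 ± 0.21 in wild type (adjusted p = 0.0116) and 1.34 ± 0.21 in knockout (adjusted p = 0.00194), and knockout exceeded wild type under both treatments, by 1.28 ± 0.21 (adjusted p = 0.00492) and 1.41 ± 0.21 (adjusted p = 0.00167). The wild-type call was lost without either wild-type CCl4 library or wild-type oil replicate 1 (up to 0.0948), and reads shared with near-identical Oas1 genes could have been divided. Zbp1, a sensor of Z-form nucleic acids that can start necroptosis, was at 3.38 and 3.85 FPKM in wild-type oil, 11.03 and 11.3 in wild-type CCl4, 5.77 and 6.61 in knockout oil and 10.8 and 10.8 in knockout CCl4. Both CCl4 groups reached about the same level, from a higher start in knockout oil. Its rise was 1.40 ± 0.10 in wild type (adjusted p = 0.000269) and 0.72 ± 0.10 in knockout (adjusted p = 0.000945), and the responses differed by -0.68 ± 0.14 (interaction, adjusted p = 0.0103). Rtp4, a receptor chaperone induced by interferon, was at 4.39 and 4.8 FPKM in wild-type oil, 8.42 and 9.26 in wild-type CCl4, 4.01 and 4.64 in knockout oil and 8.15 and 8.26 in knockout CCl4. Both genotypes moved from about the same oil level to about the same CCl4 level, with rises of 0.81 ± 0.10 in wild type (adjusted p = 0.00268) and 0.79 ± 0.10 in knockout (adjusted p = 0.000681). Bst2 rose by 1.04 ± 0.14 in wild type (adjusted p = 0.00419) and 0.42 ± 0.14 in knockout (adjusted p = 0.0431), and was higher in knockout oil than in wild-type oil by 0.80 ± 0.14 (adjusted p = 0.00645). The knockout rise of Bst2 was lost without any one library other than knockout CCl4 replicate 1 or knockout oil replicate 2 (up to 0.187) and became -0.023 with GC and length trends removed (adjusted p = 0.790), and its oil difference was lost without wild-type oil replicate 1 (0.0575).

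Another 4 antiviral genes rose in knockout and missed the threshold in wild type. Oasl1, which in mouse limits the translation of Irf7, was at 5.44 and 5.27 FPKM in wild-type oil, 6.85 and 6.51 in wild-type CCl4, 2.07 and 2.78 in knockout oil and 5.65 and 6.42 in knockout CCl4. Knockout oil lay below every other library, with a log2 difference of -0.90 ± 0.12 against wild-type oil (adjusted p = 0.00228), and CCl4 brought it to the wild-type level, a rise of 1.04 ± 0.12 (adjusted p = 0.000499) that differed from that in wild type by 0.77 ± 0.17 (interaction, adjusted p = 0.0163). That interaction was lost without any one of the 4 wild-type libraries (up to 0.0678). Ifit3, of the same family as Ifit1, was at 1.69 and 2.04 FPKM in wild-type oil, 1.54 and 1.46 in wild-type CCl4, 4.11 and 3.88 in knockout oil and 10.6 and 5.84 in knockout CCl4. Both knockout groups lay above wild type, with a difference of 1.83 ± 0.23 after CCl4 (adjusted p = 0.0007304), though the 2 knockout CCl4 libraries were far apart. Rsad2, or viperin, which makes a nucleotide that ends viral RNA chains, was at 1.21 and 1.15 FPKM in wild-type oil, 1.69 and 2.06 in wild-type CCl4, 2.19 and 1.41 in knockout oil and 7.62 and 3.36 in knockout CCl4. It rose by 1.14 ± 0.31 in knockout (adjusted p = 0.0184) and its knockout CCl4 libraries also differed widely. The interaction was 1.03 ± 0.32 for Ifit3 (adjusted p = 0.05103) and 0.75 ± 0.44 for Rsad2 (adjusted p = 0.234), so a different response was not shown for either. The Ifit3 rise of 0.83 ± 0.23 (adjusted p = 0.0202) was lost without either knockout oil library (up to 0.0633) and that of Rsad2 without knockout oil replicate 2 (0.0744). The Ifit3 difference in oil of 0.80 ± 0.23 (adjusted p = 0.0364) was lost without either wild-type CCl4 library or any oil library (up to 0.177), and the Rsad2 difference after CCl4 of 1.10 ± 0.31 (adjusted p = 0.0214) without either wild-type CCl4 library (up to 0.105). Ifitm3 rose by 0.47 ± 0.11 in knockout (adjusted p = 0.0112), near the 0.41 ± 0.11 of wild type (adjusted p = 0.0529), and with GC and length trends removed the knockout difference was -0.018 (adjusted p = 0.795).

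A further group of antiviral genes fell with CCl4 in knockout or was lower there. Parp9, an ADP-ribosyltransferase, was at 12.2 and 10.9 FPKM in wild-type oil, 13.2 and 14.4 in wild-type CCl4, 11.4 and 9.54 in knockout oil and 5.75 and 3.18 in knockout CCl4. Its partner Dtx3l, a ubiquitin ligase, was at 8.54 and 7.77 FPKM in wild-type oil, 9.03 and 9.42 in wild-type CCl4, 7.4 and 5.93 in knockout oil and 3.55 and 1.98 in knockout CCl4. Both were similar in the other 3 groups and lowest in both knockout CCl4 libraries, with no overlap. In knockout Parp9 fell by 1.10 ± 0.22 (adjusted p = 0.005201) and Dtx3l by 1.05 ± 0.20 (adjusted p = 0.00454), and the responses differed from wild type by -1.34 ± 0.31 (interaction, adjusted p = 0.01798) and -1.21 ± 0.29 (adjusted p = 0.0192). Parp14, which lies beside them on chromosome 16 with no other protein-coding gene between, was at 3.13 and 2.62 FPKM in wild-type oil, 3.61 and 4.01 in wild-type CCl4, 2.81 and 1.59 in knockout oil and 1.47 and 0.74 in knockout CCl4. Knockout was lower after CCl4, with a log2 difference of -1.21 ± 0.23 (adjusted p = 0.00443), whereas the knockout difference with CCl4, -0.60 ± 0.23, did not pass the test (adjusted p = 0.06400). Without any one of the 4 wild-type libraries the interactions of Parp9 (up to 0.0720) and Dtx3l (up to 0.0747, also without knockout oil replicate 1) were lost.

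Ddx58 and Ifih1, which sense RNA, were lower in knockout than in wild type after CCl4, unlike Oas1a, which also binds double-stranded RNA and was higher there. Ddx58, the sensor RIG-I, was at 4.78 and 4.15 FPKM in wild-type oil, 5.5 and 5.37 in wild-type CCl4, 3.74 and 3.73 in knockout oil and 2.86 and 1.73 in knockout CCl4. It was lower in knockout after CCl4, with a log2 difference of -0.99 ± 0.17 (adjusted p = 0.00264), it fell with CCl4 in knockout by 0.54 ± 0.17 (adjusted p = 0.0289), and its response differed by -0.78 ± 0.23 (interaction, adjusted p = 0.0428). Ifih1, a sensor of long double-stranded RNA, was at 4.17 and 3.97 FPKM in wild-type oil, 4.18 and 4.62 in wild-type CCl4, 4.38 and 1.3 in knockout oil and 1.67 and 0.57 in knockout CCl4. Replicate 2 was the lower library in both knockout groups, and the difference after CCl4 of -1.40 ± 0.41 (adjusted p = 0.0246) was lost without either wild-type CCl4 library or knockout CCl4 replicate 2 (up to 0.113). The fall of Ddx58 was lost without either wild-type CCl4 library, either knockout oil library or knockout CCl4 replicate 2 (up to 0.0848), and its interaction without any wild-type library or either knockout oil library (up to 0.141). Mx2, a dynamin-like antiviral GTPase, was at 1.92 and 1.78 FPKM in wild-type oil, 2.78 and 2.07 in wild-type CCl4, 0.5 and 0.46 in knockout oil and 0.6 and 0.5 in knockout CCl4. Samd9l, which restricts poxviruses, was at 1.69 and 1.72 FPKM in wild-type oil, 2.16 and 2.53 in wild-type CCl4, 0.56 and 0.07 in knockout oil and 0.39 and 0.22 in knockout CCl4. Both were lower in every knockout library than in any wild-type library. The difference for Mx2 was -0.95 ± 0.12 under oil (adjusted p = 0.00154) and -1.14 ± 0.12 under CCl4 (adjusted p = 0.000322), and for Samd9l -1.07 ± 0.18 (adjusted p = 0.00529) and -1.36 ± 0.18 (adjusted p = 0.000957). Neither passed the test with CCl4 in either genotype. Ifit1, Ifi35, Ifi44, Xaf1 and Trim30a passed in none of the 5 contrasts, at levels from 0.25 FPKM for Trim30a in wild-type oil to 16.2 for Ifi35 in knockout CCl4.

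**Figure D4:**
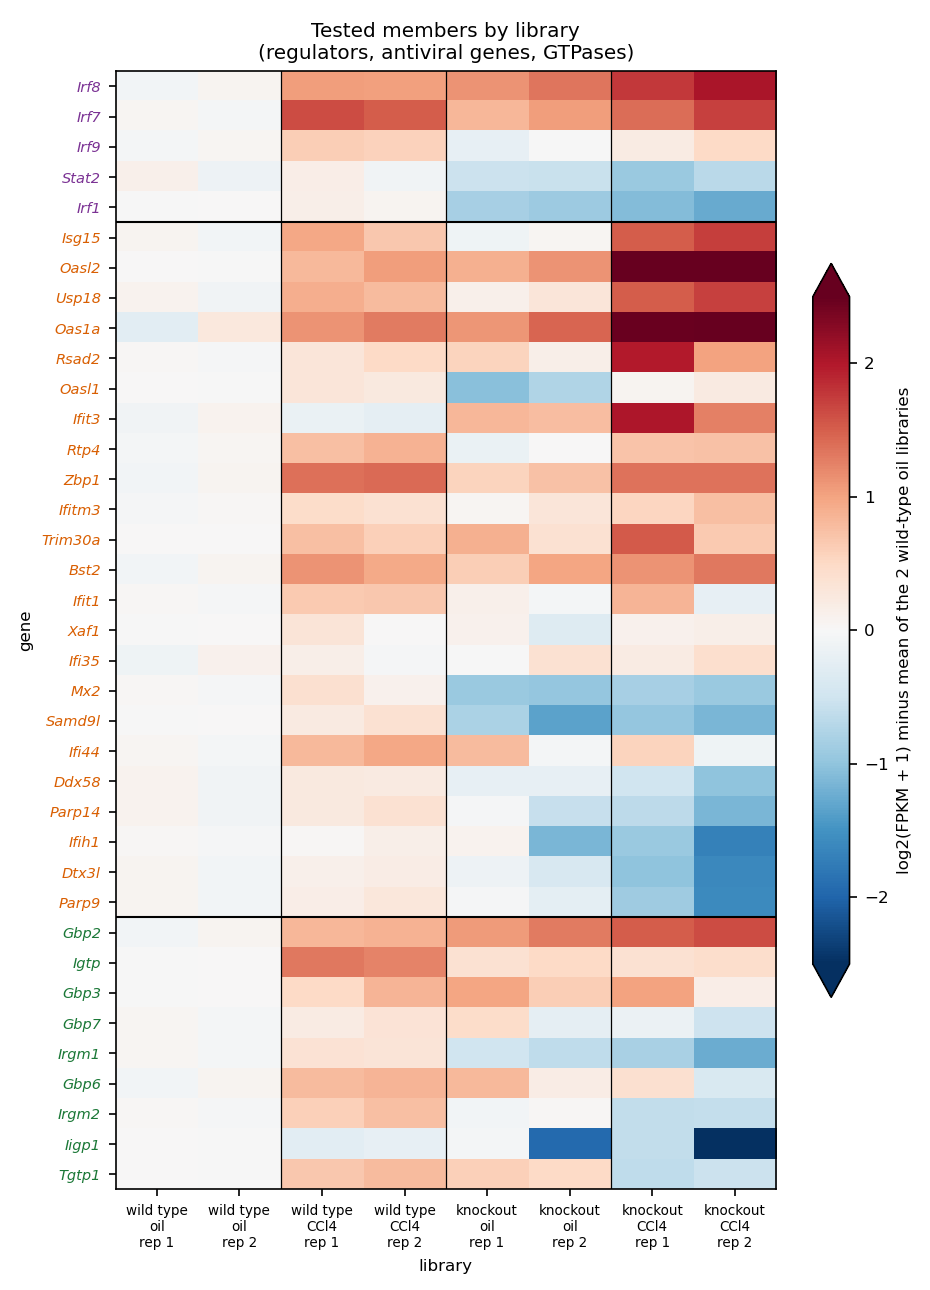
Log2(FPKM + 1) of the 37 tested members in each library, minus the mean of the 2 wild-type oil libraries, ordered by class from regulators at the top to GTPases at the bottom, with red above and blue below that mean and colours capped at the ends of the scale. Within each class, rows are sorted from the highest to the lowest knockout difference of CCl4 from oil, so the run of colours in knockout CCl4 partly follows from the sorting. Within their own rows, Isg15, Oasl2 and Usp18 are reddest in both knockout CCl4 libraries, while Rtp4 and Zbp1 are about as red in wild-type CCl4. Parp9, Dtx3l, Irgm2 and Tgtp1 are blue in knockout CCl4.

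Among the GTPases, Igtp, Irgm2 and Tgtp1, whose promoters share the GAS and ISRE pairing, were highest in wild-type CCl4, as was Irgm1, whose promoter window has no GAS match. Igtp, which protects host membranes from the effector GTPases, was at 10.8 and 10.96 FPKM in wild-type oil, 28.8 and 27.1 in wild-type CCl4, 14.5 and 15.8 in knockout oil and 14.3 and 15.1 in knockout CCl4. Wild-type CCl4 stood above all other libraries and the 2 knockout groups overlapped. Igtp rose by 1.29 ± 0.08 in wild type (adjusted p = 0.000188), differed by -0.04 ± 0.08 in knockout (adjusted p = 0.724), and had an interaction of -1.32 ± 0.11 (adjusted p = 0.000336). Knockout was higher in oil by 0.44 ± 0.08 (adjusted p = 0.00692), a call lost without either wild-type oil library (up to 0.0598), and lower after CCl4, with a log2 difference of -0.88 ± 0.08 (adjusted p = 0.000191). Irgm2, its neighbour on chromosome 11 and of the same protective kind, was at 10 and 9.52 FPKM in wild-type oil, 15.3 and 17.02 in wild-type CCl4, 9.26 and 9.92 in knockout oil and 6.07 and 6.09 in knockout CCl4. The oil groups overlapped, wild-type CCl4 lay above them and knockout CCl4 below. It rose by 0.67 ± 0.09 in wild type (adjusted p = 0.00345) and fell by 0.58 ± 0.09 in knockout (adjusted p = 0.00156), with an interaction of -1.25 ± 0.12 (adjusted p = 0.000592). Tgtp1, an effector that coats the vacuoles of parasites, was at 1.19 and 1.17 FPKM in wild-type oil, 2.46 and 2.77 in wild-type CCl4, 2.28 and 2.09 in knockout oil and 0.4 and 0.5 in knockout CCl4. Knockout oil was near wild-type CCl4 and both knockout CCl4 libraries were the lowest. Tgtp1 was higher in knockout oil than in wild-type oil, with a log2 difference of 0.50 to 0.59 over the 8 fits that left out 1 library. It rose by 0.73 ± 0.09 in wild type (adjusted p = 0.00305) and fell by 1.14 ± 0.09 in knockout (adjusted p = 9.46e-05), and its interaction of -1.86 ± 0.13 (adjusted p = 0.000144) was the most negative of the 37 members. The calls of Igtp, Irgm2 and Tgtp1 in the interaction held in each of the 8 fits that left out 1 library. Tgtp2, a near copy of Tgtp1, was at 0.12 and 0.31 FPKM in wild-type oil and 0.36 and 0.27 in wild-type CCl4. In knockout it was at 0.62 and 0.39 in oil and 0.96 and 0.24 after CCl4. Its highest value was thus in knockout CCl4 replicate 1, where Tgtp1 was lowest. How reads shared by the pair were divided is not given in the sources used here. The part of that division in the Tgtp1 values was not tested.

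Irgm1, a protective GTPase needed for defence against mycobacteria in mice, was at 23.1 and 21.5 FPKM in wild-type oil, 28.99 and 27.9 in wild-type CCl4, 15.4 and 14.1 in knockout oil and 12.3 and 8.8 in knockout CCl4. Every knockout library was below every wild-type library, with a log2 difference of -0.56 ± 0.15 under oil (adjusted p = 0.0259) and of -1.37 ± 0.15 under CCl4 (adjusted p = 0.000362). It fell with CCl4 in knockout by 0.46 ± 0.15 (adjusted p = 0.0323), with an interaction of -0.80 ± 0.21 (adjusted p = 0.0254). The fall was lost without any one library other than knockout CCl4 replicate 1 (up to 0.122), the oil difference without any wild-type library or knockout oil replicate 2 (up to 0.143), and the interaction without any wild-type library or knockout oil replicate 1 (up to 0.0955). Gbp2, a guanylate-binding protein that disrupts pathogen vacuoles, went another way, at 0.25 and 0.36 FPKM in wild-type oil, 1.31 and 1.38 in wild-type CCl4, 1.74 and 2.21 in knockout oil and 2.71 and 3.06 in knockout CCl4. From low to high its groups lay in the order wild-type oil, wild-type CCl4, knockout oil and knockout CCl4 with no overlap, as did those of Irf8 and the macrophage marker share, whose part in this order was not tested. The log2 difference was 0.85 ± 0.11 with CCl4 in wild type (adjusted p = 0.00352) and 0.39 ± 0.11 in knockout (adjusted p = 0.02401), and 1.19 ± 0.11 between genotypes under oil (adjusted p = 0.000512) and 0.73 ± 0.11 under CCl4 (adjusted p = 0.00181). The wild-type rise of Gbp2 was lost with quantile normalization (0.0621), and the knockout rise without knockout CCl4 replicate 2 or knockout oil replicate 1 (up to 0.120).

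Gbp6 was at 0.9 and 1.1 FPKM in wild-type oil, 2.46 and 2.61 in wild-type CCl4, 2.51 and 1.27 in knockout oil and 1.62 and 0.54 in knockout CCl4. Replicate 2 was below replicate 1 by over 1 FPKM in both knockout groups, and the interaction of -1.31 ± 0.41 (adjusted p = 0.0475) was lost without any wild-type library, knockout CCl4 replicate 2 or knockout oil replicate 1 (up to 0.139). Its difference between genotypes after CCl4, -0.82 ± 0.29 (adjusted p = 0.0471), was lost without any wild-type library or knockout CCl4 replicate 2 (up to 0.206). Iigp1, an effector GTPase and the most abundant of the class, was at 67.1 and 66.5 FPKM in wild-type oil, 55.1 and 57.8 in wild-type CCl4, 64.8 and 16.6 in knockout oil and 42.99 and 9.33 in knockout CCl4. Replicate 2 was far below replicate 1 in both knockout groups, so the level in knockout was not determined, and no contrast passed the test. Gbp3 and Gbp7 lay between 0.24 and 1.86 FPKM and passed in no contrast.

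Set side by side by class mean, the GTPases and the antiviral genes were about level in wild type and parted in knockout after CCl4. Class medians of log2(FPKM + 1) did not show this. In wild-type oil they were 1.13 and 1.12 for GTPases against 2.13 and 2.28 for antiviral genes. In knockout CCl4 they were 1.89 and 2.02 against 2.73 and 2.12. The mean log2(FPKM + 1) of the 9 GTPases minus that of the 23 antiviral genes was -0.034 in both wild-type oil libraries, -0.0033 and 0.095 in wild-type CCl4, 0.23 and -0.023 in knockout oil, and -0.56 and -0.77 in knockout CCl4. Both knockout CCl4 libraries lay below the other 6. Both wild-type oil libraries came next, just below knockout oil replicate 2, and wild-type CCl4 and knockout oil overlapped. The GTPase mean includes Iigp1, whose replicate 2 minus replicate 1 was -1.90 in knockout oil and -2.09 in knockout CCl4. Its part in these class values was not tested. As medians of log2 differences, GTPases minus antiviral genes came to 0.28 for CCl4 in wild type and -0.88 for CCl4 in knockout. In the interaction, 3 members were higher and 10 lower (35.1%), against 33.3% of all genes, 14.3% higher and 19% lower, so the share of members called was near that of all genes. The median was -0.90 for GTPases, -0.19 for antiviral genes and -0.09 for all genes. All 9 GTPases had a negative interaction, against 5713 of 10082 genes tested. Of the 9, 5 passed the test, whereas with limma 0 passed in the other direction, also at an unadjusted p under 0.05. Markers of Kupffer cells and macrophages were negative in the same contrast in 17 of 18, with 10 lower, 0 higher (0 also at an unadjusted p under 0.05) and a median of -0.95, and sinusoidal endothelial markers in 10 of 11, with 3 lower and a median of -0.49. Their part in the GTPase values was not tested. Of the antiviral genes 3 had a higher response in knockout (Isg15, Oasl1 and Oasl2) and 4 a lower one (Ddx58, Parp9, Dtx3l and Zbp1). Of the 13 calls, Irf7, Zbp1, Igtp, Irgm2 and Tgtp1 held in every fit that left out 1 library. The count of 13 became 6 without either wild-type CCl4 library, 5 without either wild-type oil library, 20 without knockout CCl4 replicate 1 and 25 without replicate 2 of both knockout groups. The median of GTPases minus antiviral genes for CCl4 in knockout became -0.47 without knockout CCl4 replicate 2 or knockout oil replicate 1.

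Part of the spread within the knockout groups followed the base composition of the transcripts. The GC content of the longest transcript ran from 38.8% in Samd9l to 56.3% in Oasl1, with a median of 51.9% for regulators, 47.5% for antiviral genes and 45.6% for GTPases. Over the 37 members, the replicate difference correlated with GC content with r = 0.79 in knockout oil and r = 0.73 in knockout CCl4, and over 10055 genes with r = 0.58 and r = 0.64, given as descriptions across genes. In wild type, where the replicate differences were smaller, the values were 0.19 in oil and -0.50 after CCl4 over the 37 members and 0.15 and -0.28 over 10055 genes. Replicate 2 was lower for the members of low GC content such as Iigp1, Ifih1, Gbp6 and Gbp7. Igtp, Irgm2 and Tgtp1 differed between replicates by less than 0.12 on the log2 scale in both knockout groups. The part of base composition in the difference between classes was not tested beyond the fit with GC and length trends removed, where the median of GTPases minus that of antiviral genes for CCl4 in knockout was -0.59.

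**Figure D5:**
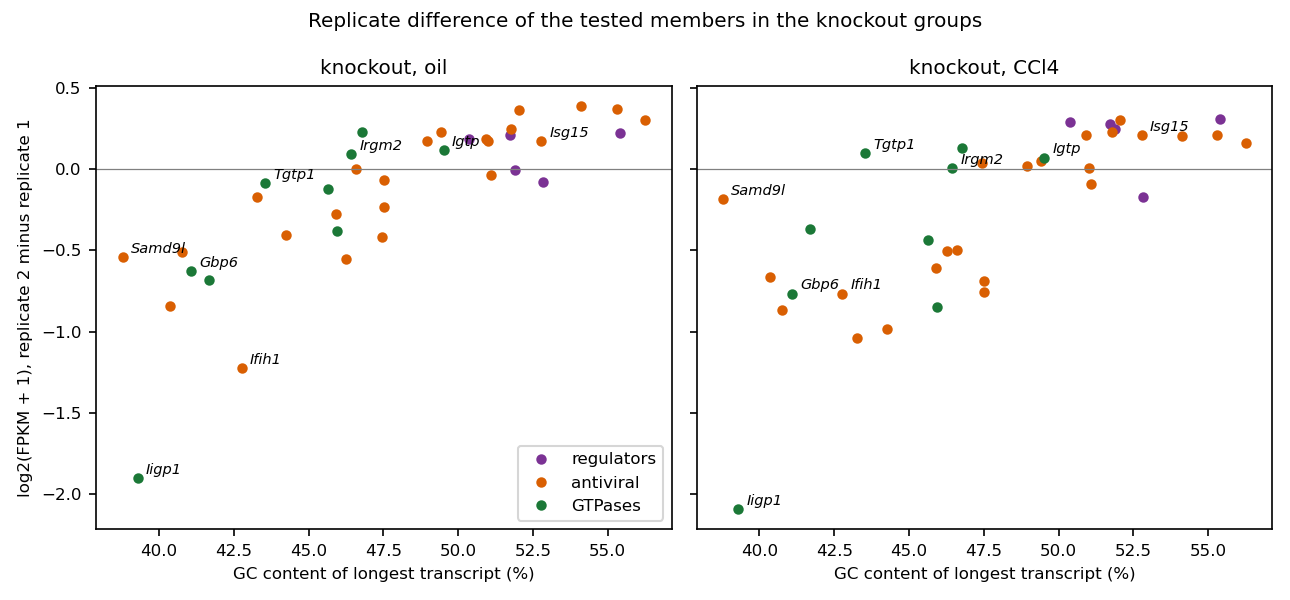
Replicate 2 minus replicate 1 in log2(FPKM + 1) for each tested member in the 2 knockout groups, against the GC content of its longest transcript in percent. Members of low GC content such as Iigp1 and Gbp6 fall below 0 in both panels, while Igtp, Irgm2 and Tgtp1 stay near 0.

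Upstream of these genes, the interferons themselves were hardly detected. Of 21 interferon symbols sought, 6 were listed and the highest value of any was 0.17 FPKM, for Ifng in knockout oil replicate 1. Markers of T cells and natural killer cells, the sources of interferon gamma, were below 1 FPKM in all libraries for 11 of 13 genes listed. So were 7 of 8 markers of B cells and plasmacytoid dendritic cells. Bst2 (up to 263 FPKM) and Irf8 (up to 6.51 FPKM) also mark these cells and were left out of that count as members. Of 14 tested receptors, kinases, STATs and inhibitors, 4 rose with CCl4 in wild type (28.6%, against 15.8% of all genes), and 6 rose and 1 fell in knockout (50%, against 55.3% of all genes). Ifngr1, the ligand-binding chain of the interferon gamma receptor, was at 5.28 and 5.56 FPKM in wild-type oil, 10.4 and 11.9 in wild-type CCl4, 8.58 and 10.8 in knockout oil and 25.9 and 26.5 in knockout CCl4. Its level in both knockout CCl4 libraries was above that in any other library, with a rise of 1.36 ± 0.12 (adjusted p = 0.000134) against 0.92 ± 0.12 in wild type (adjusted p = 0.003398). The test of the difference between these rises did not pass (interaction 0.44 ± 0.17, adjusted p = 0.0911). For Ifngr2, the other chain of that receptor, it passed (interaction 0.41 ± 0.12, adjusted p = 0.0364). Of the 14 genes, 3 were higher in the interaction (Ifngr2, Stat3 and Ptpn6) and 1 lower (28.6%, against 33.3% of all genes). Socs3, an inhibitor of cytokine receptors that the Stat3 pathway induces, was at 4.12 and 3.48 FPKM in wild-type oil, 16.3 and 15.1 in wild-type CCl4, 23.04 and 25.1 in knockout oil and 7.92 and 7.65 in knockout CCl4. It rose with CCl4 in wild type by 1.80 ± 0.10 (adjusted p = 0.000126) and fell in knockout by 1.51 ± 0.10 (adjusted p = 3.68e-05), with an interaction of -3.32 ± 0.14 (adjusted p = 2.32e-05).

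Other genes of the 2 pathways, outside the members, were counted in the same way. Of 30 other antiviral genes tested, 11 rose with CCl4 in wild type (36.7%, against 15.8% of all genes), and 16 rose and 8 fell in knockout (80%, against 55.3%). The steepest fall in knockout was that of Apol9b, with a log2 difference of -1.74 ± 0.07 (adjusted p = 5.21e-06), and the steepest rise that of Ifi27l2b, of 2.78 ± 0.18 (adjusted p = 3.07e-05). Of 20 other interferon gamma genes, 5 rose in wild type (25%), and 5 rose and 6 fell in knockout (55%, near the share of all genes). Among those that fell was Psmb9, an immunoproteasome subunit, with -1.03 ± 0.14 (adjusted p = 0.000951). In the interaction 1 of these 20 was higher and 5 lower, with 16 of 20 negative, against 5713 of 10082 genes tested. Of the other antiviral genes 7 of 30 were higher and 5 lower. That is 30% and 40% called against 33.3% of all genes. Cxcl9, a chemokine that interferon gamma induces, rose in wild type by 1.19 ± 0.11 (adjusted p = 0.000877) and its response in knockout differed by -0.73 ± 0.16 (adjusted p = 0.01404). It was at 0.6 and 0.63 FPKM in wild-type oil and 2.82 and 2.54 in wild-type CCl4. In knockout Cxcl9 was higher than in wild type, at 3.45 and 3.83 FPKM in oil and 5.91 and 4.88 after CCl4. Of 13 sensors and adaptors, limma called 0 with CCl4 in wild type, with 4 higher and 1 lower at an unadjusted p under 0.05, and 4 rose and 1 fell in knockout (38.5%, below the 55.3% of all genes).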

How the data were processed

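The authors deposited one table of FPKM, per the file headers, with 2 decimals per value. Build mm8 is named per the submitters' processing notes. Aligner, counting tool, annotation and read numbers were not given in the sources used here, so depth is unknown and precision rests on the spread between 2 libraries. FPKM is relative within a library, and a gene's value falls where others take more reads. Columns were matched to libraries by name and libraries to groups by title. Of 16338 rows, 1 without a gene name was dropped. A gene was tested if it reached 1 FPKM in 2 or more of the 8 libraries (10082 tested, 6255 not). All 8 libraries were fitted as 4 groups with limma 3.58.1 (R 4.3.3, trended prior, 4 residual and 2.61 prior degrees of freedom) on log2(FPKM + 1), with 5 two-sided contrasts, Benjamini-Hochberg adjustment per contrast and an FDR of 0.05. The fit was tested first on simulated data that had the same spread in every gene and library. That test does not cover the wider spread of the knockout libraries.

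Members and lists were chosen with earlier results of these data known, so no p is given over a list. Members given with all 8 values are up to 4 per class and contrast with the smallest adjusted p and those called in the interaction; others were named after their values were seen. GC content and length come from the longest GENCODE M21 transcript, matched by Entrez identifier, and promoters from RefSeq GRCm38.p6, a build other than mm8, so no position of these data was converted. The alternatives were quantile normalization, equal library medians, no filter, a pseudocount of 0.1, replicate blocks, only the 4 libraries compared, genotype weights, leaving out each library or replicate 2 of both knockout groups and, added after seeing the data, removal of GC and length trends. The 15 other interferon symbols were not analysed here, and 1 gene of the pathway lists is not reported here. The plots were made in Python 3.11.15 with matplotlib 3.10.9.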

Additional observations from a re-analysis of the deposited data

Results flagged for a closer look

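The response to CCl4 differed between genotypes for 13 of the 37 tested members (35.1%, near the 33.3% of all genes) by the interaction term of limma, given as the log2 difference in knockout minus that in wild type. Among GTPases this was -1.86 for Tgtp1 (adjusted p = 0.000144), -1.32 for Igtp (0.000336), -1.25 for Irgm2 (0.000592), -1.31 for Gbp6 (0.0475) and -0.80 for Irgm1 (0.0254). Among regulators it was -0.96 for Irf7 (0.00866). Among antiviral genes it was negative for Parp9 at -1.34 (0.01798), Dtx3l at -1.21 (0.0192), Ddx58 at -0.78 (0.0428) and Zbp1 at -0.68 (0.0103). It was positive for Isg15 at 0.83 (0.0178), Oasl1 at 0.77 (0.0163) and Oasl2 at 0.67 (0.0255). For Irf7 and Zbp1 the knockout started from a higher oil level and both genotypes reached similar levels after CCl4. Igtp and Tgtp1 were also higher in knockout oil than in wild-type oil. For Igtp, Irgm2 and Tgtp1 the levels after CCl4 differed between genotypes.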

How the results depend on the processing

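The 14, 22, 16, 22 and 13 members called (CCl4 in wild type, in knockout, genotype under oil, under CCl4, interaction) ranged from 11 to 20, 15 to 25, 11 to 18, 19 to 27 and 5 to 20 when 1 library was left out. With the replicate block they were 15, 23, 16, 23 and 17, and no member called without the block was lost. The numbers are not stated to pair samples. The replicate differences correlated at 0.80 between the knockout groups and -0.04 between the wild-type groups. With a block in the knockout alone, 26 were called in wild type and 26 in the interaction, and without replicate 2 of both knockout groups 29 and 25. In wild type 28 were called with only the 4 libraries compared and 23 with genotype weights, in knockout 13 with only the 4 libraries, and in the interaction 21 with GC and length trends removed. The cause of these shifts was not tested.

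The median difference of GTPases minus antiviral genes kept its sign in every alternative run. It ranged from 0.19 to 0.41, -0.89 to -0.47, 0.17 to 0.44, -1.16 to -0.38 and -1.05 to -0.55 over fits without 1 library, in the same order. With a pseudocount of 0.1 it was 0.65 in wild type and -1.28 for genotype after CCl4, which was -0.43 with the knockout block and -0.38 without replicate 2 of both knockout groups. For CCl4 in knockout it was -0.59 with GC and length trends removed. That fit turned Bst2 in knockout to -0.023 and after CCl4 between genotypes to -0.19, and Ifitm3 in knockout to -0.018 and in the interaction to -0.30. The Oasl2 interaction turned to -0.62 with a pseudocount of 0.1, which moved the median interaction of all genes to -0.14 from -0.09. Called members kept their direction with quantile normalization and equal library medians in all 5 contrasts. Depth is unknown, so genes near 1 FPKM have a precision known only from 2 libraries.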
